A study of Homo sapiens with 6 samples.

Results

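The 38 HOX genes described here are the members of the HOXA, HOXB, HOXC and HOXD clusters found by gene symbol. The rule uses no measured value, though these clusters were picked for description with earlier results of the data known. They are 38 of the 58884 genes in the count table, and 28 of them had enough counts to be among the 16059 genes tested. RNA-seq was performed on DLD1 cells, a human colorectal cancer cell line with a *PIK3CA* helical domain mutation. Parental cells (3 libraries) were compared with DLD1 p85β K477A/R478A cells, called p85βKR-AA here (3 libraries), in which K477A and R478A were knocked into *PIK3R2*, the gene for the p85β regulatory subunit of PI3K. The changed residues lie in the nuclear localization sequence of p85β, and the comparison asks which genes differ in expression when this sequence is altered. The study derived a pair of homozygous knock-in clones by CRISPR/Cas9 editing. The libraries are numbered without a clone name, so that clone and genotype cannot be told apart. The labels give no treatment, and they do not say that libraries of 1 condition were separate cultures, so that p-values measure the spread between these libraries only.

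HOX genes encode homeodomain transcription factors that pattern the body along the head-to-tail axis. They lie in 4 clusters, in which genes with low paralog numbers are used toward the head and genes with high paralog numbers toward the tail, and genes with the same number in different clusters are paralogs. In cells where a HOX gene is off, it is usually covered by Polycomb repressive marks, and in adult tissues, the colon included, cells keep a pattern of HOX expression that reflects their position in the body. Among the HOX genes, *HOXB13* and the other genes of paralog group 13 are known as posterior genes, of the hindgut and the urogenital tract.

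Library totals were 20301396 to 26712816 estimated counts. Levels are given as CPM, the count relative to a library size scaled by the trimmed mean of M values (TMM), and levels of different genes are compared only as CPM per kilobase (CPM per kb) of the gene length in the table. As the TMM factors were 0.677 to 0.777 in the parental libraries and 1.35 to 1.41 in the p85βKR-AA libraries, 1 count was worth 0.0617 to 0.0728 CPM in parental and 0.0273 to 0.0364 CPM in p85βKR-AA libraries. The median log2 fold change (p85βKR-AA over parental) of all tested genes was 0.32 with TMM and 1.24 with library totals. It was -0.95 among genes in the lowest quartile of length (up to 1726 bases) and 1.80 in the highest (from 4509 bases). Across quartiles of GC content the median went from 1.77 in the lowest to -1.33 in the highest. Of the 28 tested HOX genes, 9 and 16 lay in the 2 lower quartiles of length, and 17 and 8 in the 2 higher quartiles of GC content. A fit with offsets for length and GC content is therefore given beside the results. *PIK3R2* itself had 524.1, 169.3 and 313.0 counts in the parental and 503.2, 476.0 and 124.5 counts in the p85βKR-AA libraries, and gene counts do not show the knocked-in bases. Of the colon epithelial markers, 12 of 14 were over 1 CPM in every parental library and 11 of 14 in every p85βKR-AA library, with *CDX1* at 3 counts or fewer in each library. Of the 13 tested, 3 were up-regulated and 6 down-regulated (against 28.6% up and 17.6% down of all tested genes). With library totals 3 were up and 4 down, and with the offsets 1 and 1. The summed level of the 14, mostly that of keratins, went from 57364 to 79395 CPM in parental to 8892 to 10388 CPM in p85βKR-AA libraries. The summed level of 14 mesenchymal markers was 7.86 to 10.8 CPM in parental and 6347 to 7262 CPM in p85βKR-AA libraries, with *VIM* and *FN1* high and *PDGFRA* at 0. Of 10 neuronal markers 6 were tested and 5 up-regulated (28.6% of all tested genes were), 5 with library totals and 4 with the offsets. The up-regulated ones were *NEFL*, *NEFM*, *MAP2*, *SYT1* and *GAP43*. *NEFL* had 0 counts in each parental library and 130.2 to 133.8 CPM in p85βKR-AA libraries. *TUBB3* was lower, at 519.8 to 607.4 CPM in parental and 204.0 to 224.1 CPM in p85βKR-AA libraries. *ELAVL4* and *DCX* stood at 0. The summed level of the 10, mostly that of *TUBB3*, was 520.9 to 608.1 CPM in parental and 349.0 to 369.3 CPM in p85βKR-AA libraries. Of 8 hepatocyte and 8 blood markers 2 each were tested, of which edgeR called 0 with TMM and all with the offsets. The part of these shifts in the HOX results was not tested. In such bulk RNA, fewer cells that express a gene and less RNA per cell cannot be told apart.

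HOX genes went in both directions in p85βKR-AA cells. A gene was called when the conditions differed by 3-fold or more with an adjusted p under 0.01 (edgeR quasi-likelihood test, Benjamini-Hochberg adjustment over 16059 genes). By this rule *HOXA2*, *HOXA5*, *HOXA6*, *HOXA13*, *HOXC8* and *HOXD13* were up-regulated (6 of 28, or 21.4%, against 28.6% of all tested genes). *HOXB4*, *HOXB5*, *HOXC5* and *HOXD9* were down-regulated (4 of 28, or 14.3%, against 17.6% of all tested genes). Both shares lay near those of all genes, and with 28 members no difference from them is read. Every p85βKR-AA library was above every parental library for 12 of the 28 and below for another 12 (42.9% each), where the shares of all genes were 47.0% and 36.5%. The median log2 fold change of the 28 was -0.27, and 12 of the 28 lay above the all-gene median.

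The direction of several HOX genes depended on the scaling. With library totals, 11 of the 28 (39.3%) were up-regulated against 43.9% of all genes, and 1 (3.57%, *HOXC5*) was down-regulated against 6.06%. With length and GC offsets, 10 (35.7%) were up-regulated against 17.8% of all genes and 0 were down-regulated against 6.26%, where 4 members were lower at an unadjusted p under 0.05 in that edgeR fit and DESeq2 without offsets called 4 down. The median of the 28 stood 0.59 below the all-gene median with TMM and with library totals, but 0.54 above it with the offsets. In all of these 3 fits, 13 genes were higher in p85βKR-AA cells (*HOXA2*, *HOXA3*, *HOXA5*, *HOXA6*, *HOXA9*, *HOXA13*, *HOXB3*, *HOXC6*, *HOXC8*, *HOXC10*, *HOXC13*, *HOXD8* and *HOXD13*), not all of them by the test. Lower in all 3 were *HOXB4*, *HOXB5*, *HOXB7*, *HOXB13*, *HOXC5* and *HOXD9*, and the other 9 changed sign.

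The promoters listed in the RefSeq table (GRCh38.p14) for the 4 called members with the largest fold changes and an entry are printed. They show how unlike in base composition the listed start sites are. Each runs 5′ to 3′ on the gene's strand, from 250 bases before to 50 bases after the start site. Capitals mark matches, on either strand, to TATAAA, the letters of the TATA box, to CCAAT, those of the CCAAT box, to TTTATNG, the kind of site bound by CDX factors, or to TGATNNAT, the kind bound by HOX and PBX proteins together. *HOXA2* lies at chr7:27102634-27102933 on the minus strand, *HOXD13* at chr2:176092471-176092770 on the plus strand, *HOXC5* at chr12:54016638-54016937 on the plus strand and *HOXA13* at chr7:27200042-27200341 on the minus strand.
HOXA2: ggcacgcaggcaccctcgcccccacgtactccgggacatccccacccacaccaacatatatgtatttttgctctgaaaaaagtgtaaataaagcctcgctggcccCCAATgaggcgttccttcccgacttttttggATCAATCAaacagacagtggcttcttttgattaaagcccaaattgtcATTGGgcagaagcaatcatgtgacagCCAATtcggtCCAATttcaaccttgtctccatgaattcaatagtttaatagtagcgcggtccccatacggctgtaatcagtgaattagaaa
HOXD13: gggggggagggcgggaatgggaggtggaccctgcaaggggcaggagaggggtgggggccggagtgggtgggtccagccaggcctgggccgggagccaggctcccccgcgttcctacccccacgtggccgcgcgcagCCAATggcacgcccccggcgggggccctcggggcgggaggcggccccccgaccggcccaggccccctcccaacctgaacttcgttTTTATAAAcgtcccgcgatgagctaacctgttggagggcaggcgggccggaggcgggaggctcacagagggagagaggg
HOXC5: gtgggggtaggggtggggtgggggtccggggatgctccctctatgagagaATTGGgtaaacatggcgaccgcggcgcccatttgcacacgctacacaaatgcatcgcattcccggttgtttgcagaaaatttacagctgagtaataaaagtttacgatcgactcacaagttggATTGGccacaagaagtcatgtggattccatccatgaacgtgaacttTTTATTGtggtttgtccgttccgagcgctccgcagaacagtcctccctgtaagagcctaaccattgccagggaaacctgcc
HOXA13: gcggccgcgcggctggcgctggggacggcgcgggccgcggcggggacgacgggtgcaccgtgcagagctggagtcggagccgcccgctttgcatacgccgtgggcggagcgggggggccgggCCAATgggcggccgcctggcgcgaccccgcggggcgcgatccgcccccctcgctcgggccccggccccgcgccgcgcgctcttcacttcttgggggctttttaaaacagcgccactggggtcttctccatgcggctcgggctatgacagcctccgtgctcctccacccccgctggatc
The *HOXA2* window was the poorest in GC (46.3%) and held 4 CCAAT boxes and a HOX-PBX-type match. The *HOXD13* window (74.0% GC) held a CCAAT box and, 29 bases before the start, an 8-base stretch that matches the TATA box on both strands. The *HOXC5* window (51.7% GC), listed for *HOXC4* as well, held 2 CCAAT boxes and a CDX-type match 31 bases before the listed start. In the GENCODE annotation on GRCh37, *HOXC4* starts at base 54410715 and *HOXC5* at base 54426834. These starts lie further apart than the window is long. It therefore cannot describe both, and whether it lies at the start of the counted *HOXC5* is uncertain. The *HOXA13* window (76.3% GC) held a CCAAT box, and its ratio of observed to expected CpG was 1.01, against 0.706 for *HOXA2*, 0.600 for *HOXD13* and 0.755 for *HOXC5*. Of 38 members, 20 had an entry, with 26 distinct windows. CCAAT stood in 17 of these 26 (65.4%) and in 34.6% of all 34943 promoters. TATAAA stood in 5 (19.2%) against 11.6%, TTTATNG in 6 (23.1%) against 9.75% and TGATNNAT in 3 (11.5%) against 7.42%. The median CpG ratio was 0.855 in the member windows and 0.577 in all promoters. A match is a run of letters and no evidence of binding.

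The HOXB cluster carried most of the HOX RNA in both conditions. Its summed level was 191.4, 191.4 and 203.4 CPM per kb in the parental and 148.7, 151.3 and 156.6 CPM per kb in the p85βKR-AA libraries. Of the summed level of all 38 genes, which was 240.7 ± 12.4 CPM per kb in parental and 210.9 ± 4.30 in p85βKR-AA cells (SD, n = 3), HOXB made up 82.2%, 81.7% and 79.7% in the parental and 71.9%, 71.8% and 72.7% in the p85βKR-AA libraries. HOXA made up 14.2%, 15.05% and 16.9% in the parental and 24.4%, 25.0% and 23.8% in the p85βKR-AA libraries. The HOXA share was thus higher, and the HOXB share lower, in each p85βKR-AA library than in any parental library. These shares do not depend on how libraries are scaled, though they do depend on gene length. HOXC (2.19% ± 0.0274 and 2.28% ± 0.227) and HOXD (1.22% ± 0.226 and 1.14% ± 0.110) were minor in both conditions, and their differences were within the spread between libraries.

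**Figure D1:**
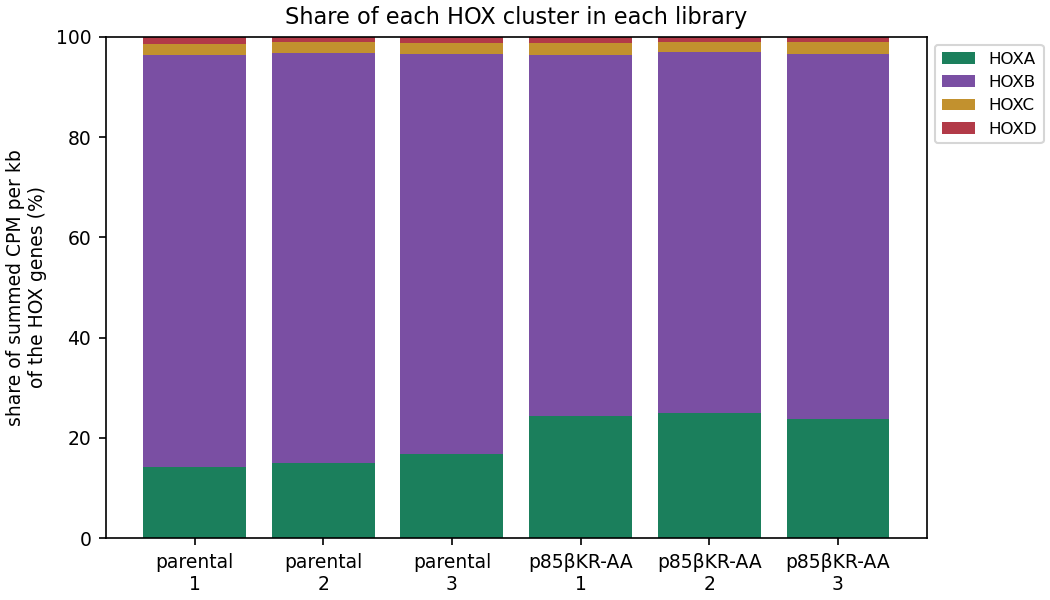
Share of each HOX cluster in the summed CPM per kb of the 38 HOX genes (y axis, %), with 1 stacked bar per library (x axis: 3 parental, 3 p85βKR-AA). HOXA takes 14.2% to 16.9% of the parental and 23.8% to 25.0% of the p85βKR-AA bars, and HOXB the largest part of every bar.

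The gene with the most HOX RNA per length was not the same in the conditions. In parental cells *HOXB6* was first at 70.1 ± 1.87 CPM per kb, followed by *HOXB7* at 36.5 ± 3.44, *HOXB9* at 26.7 ± 3.72 and *HOXB3* at 24.5 ± 3.68 (SD, n = 3). *HOXB9* and *HOXB3* did not differ beyond their spread, nor did *HOXB8* (14.03 ± 0.767) and *HOXB5* (13.3 ± 1.52), which came next. In p85βKR-AA cells *HOXB3* was first at 62.0 ± 1.72 CPM per kb, followed by *HOXB6* at 39.3 ± 1.38, *HOXB9* at 19.2 ± 1.10, *HOXB7* at 16.4 ± 1.20 and *HOXA9* at 15.6 ± 0.651, of which the last 2 lay within their spread. The place of *HOXB3* rests on the length given for it in the table, 1420 bases, where its annotated transcripts run to 4208 bases.

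**Figure D2:**
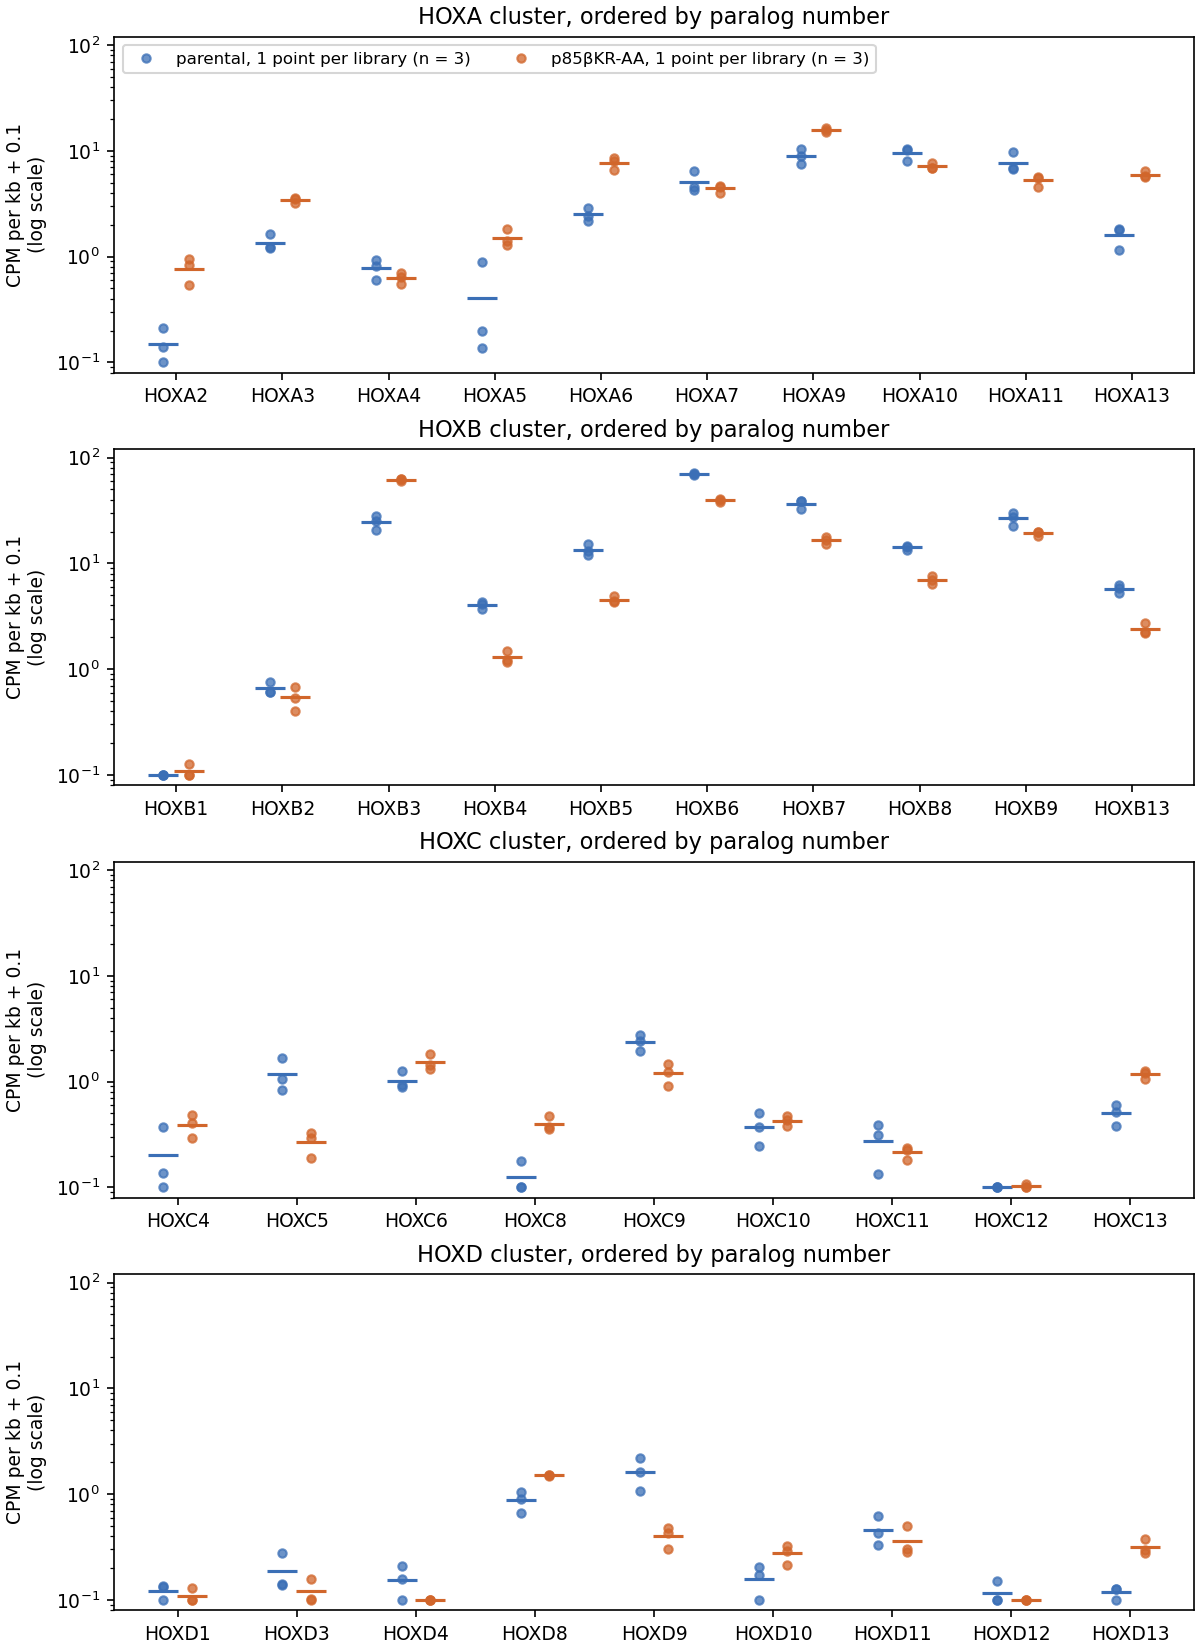
Level of each of the 38 HOX genes in CPM per kb plus 0.1 (y axis, log scale) in parental and p85βKR-AA libraries, with 1 panel per cluster, 1 point per library and a dash at the mean of 3 libraries. Genes are ordered by paralog number, and *HOXB3* is seen to pass *HOXB6* while *HOXB4* to *HOXB9* lie lower in p85βKR-AA cells with TMM scaling, the sign of *HOXB6*, *HOXB8* and *HOXB9* being the other with the offsets.

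The HOXA cluster (chr7:27139973-27239710, minus strand, GENCODE 44 lifted to GRCh37) was the only cluster in which all members were tested. By edgeR, 4 of its 10 genes rose past the thresholds and 0 fell (against 28.6% up and 17.6% down of all tested genes), with 2 lower at an unadjusted p under 0.05 and 0 called down by DESeq2. Its median log2 fold change was 1.11.

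*HOXA2*, the most anterior gene of this cluster measured here and a regulator of hindbrain identity, had 0.0664, 0 and 0.185 CPM in the parental and 1.42, 0.731 and 1.24 CPM in the p85βKR-AA libraries. It stood at 3 counts or fewer in each parental library and at 21 or more in each p85βKR-AA library. The pooled counts, 4 and 107, gave a ratio of scaled levels of 13.0 (exact 95% interval 4.92 to 48.5, for counting error only), and the fitted log2 fold change was 3.60 (SE 0.64, edgeR quasi-likelihood test with Benjamini-Hochberg adjustment, adjusted p = 0.000195). Without parental replicate 3, the highest of the parental libraries, the fitted value was 4.80.

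*HOXA5* and *HOXA6*, neighbours in the middle of the cluster, were up-regulated as well. *HOXA5*, a regulator of lung and gut patterning, had 0.162, 0.0619 and 1.33 CPM in the parental and 2.20, 2.87 and 1.98 CPM in the p85βKR-AA libraries. The groups did not overlap, but parental replicate 3 stood far above the other 2 parental libraries. The log2 fold change was 2.09 (SE 0.60, adjusted p = 0.00613 by the edgeR quasi-likelihood test), 4.39 without parental replicate 3, and past the thresholds no longer without parental replicate 1 (1.63, adjusted p = 0.0337 by edgeR), parental replicate 2 (1.60, 0.0204), p85βKR-AA replicate 2 (1.94, 0.0211) or p85βKR-AA replicate 3 (2.21, 0.0118). *HOXA6* had 2.78, 2.32 and 2.07 CPM in the parental and 7.83, 6.37 and 8.30 CPM in the p85βKR-AA libraries, all of the latter higher. Its log2 fold change was 1.64 (SE 0.23, adjusted p = 2.16e-05 by the edgeR quasi-likelihood test), which fell under a fold of 3 without parental replicate 3 (1.51) or p85βKR-AA replicate 3 (1.57) and with DESeq2 (1.52), and was 2.56 with library totals and 4.02 with the offsets, called in both.

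*HOXA13*, the most posterior gene of the cluster and a regulator of hindgut and limb tip formation, had 8.44, 5.27 and 8.76 CPM in the parental and 28.2, 31.97 and 28.3 CPM in the p85βKR-AA libraries. The lowest p85βKR-AA library was over 3 times the highest parental library. The log2 fold change was 1.97 (SE 0.20, adjusted p = 1.43e-06 by the edgeR quasi-likelihood test) and 2.89 with library totals, but 0.12 with length and GC offsets. *HOXA13* has the largest length in the table of the 28 tested members, 5030 bases, and the lowest GC content of its transcripts, 41.7%.

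The genes between these went either way. *HOXA3* had 4.999, 3.64 and 3.70 CPM in the parental and 11.4, 11.1 and 10.2 CPM in the p85βKR-AA libraries. *HOXA9*, known for its part in blood stem cells and leukemia, had 15.4, 18.2 and 21.3 CPM against 32.2, 33.5 and 30.8 CPM. Both were higher without overlap, with log2 fold changes of 1.41 (adjusted p = 3.33e-05) and 0.81 (adjusted p = 0.000479) by the edgeR quasi-likelihood test, below a fold of 3. Both were called up-regulated with library totals (2.33 and 1.73) and with the offsets (2.36 and 1.89). *HOXA10*, which acts in the uterus and in blood, had 19.98, 25.8 and 25.97 CPM in the parental and 17.3, 19.2 and 17.1 CPM in the p85βKR-AA libraries. *HOXA11*, a regulator of limb and kidney formation, had 15.1, 15.6 and 22.1 CPM against 10.2, 12.6 and 12.7 CPM. These 2 were lower without overlap, with log2 fold changes of -0.42 and -0.57, and both had positive values with library totals (0.50 and 0.35) and with the offsets (0.22 and 0.26). *HOXA4* (1.42, 0.874 and 1.23 against 0.780, 1.04 and 0.946 CPM) and *HOXA7* (8.40, 8.89 and 12.8 against 7.91, 9.14 and 9.05 CPM) overlapped between the conditions.

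The HOXB cluster (chr17:46605888-46806112, minus strand) went mostly the other way with TMM scaling. Of its 9 tested genes, 7 were lower in each p85βKR-AA library than in any parental library, 1 was higher and 1 overlapped (36.5% of all tested genes were lower and 47.0% higher in this way), and the median log2 fold change was -1.03. *HOXB4* and *HOXB5* were down-regulated, and 0 genes were up-regulated by edgeR or DESeq2, with 1 higher at an unadjusted p under 0.05. With library totals or the offsets edgeR called 0 of the 9 down, with 2 and 3 of them lower at an unadjusted p under 0.05.

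*HOXB4*, which supports the growth of blood stem cells, had 7.30, 8.46 and 7.99 CPM in the parental and 2.80, 2.26 and 2.13 CPM in the p85βKR-AA libraries. *HOXB5*, a regulator of enteric nerve and vessel precursors, had 30.6, 26.6 and 24.5 CPM in the parental and 8.63, 8.76 and 9.79 CPM in the p85βKR-AA libraries. In both genes the conditions were far apart compared with the spread within them. By the edgeR quasi-likelihood test the log2 fold change of *HOXB4* was -1.72 (SE 0.21, adjusted p = 8.40e-06). That of *HOXB5* was -1.59 (SE 0.17, adjusted p = 1.61e-06 by the same edgeR test), and it fell short of a fold of 3 without parental replicate 1 (-1.50), p85βKR-AA replicate 1 (-1.54) or p85βKR-AA replicate 2 (-1.55). With library totals the values were -0.79 and -0.66, and with the offsets -0.28 and -0.54.

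*HOXB3*, whose annotation spans *HOXB4*, *HOXB5* and *HOXB6*, stood apart from its neighbours. It had 35.3, 29.4 and 39.8 CPM in the parental and 85.3, 89.2 and 89.7 CPM in the p85βKR-AA libraries. Its log2 fold change of 1.34 (SE 0.14, adjusted p = 1.96e-06 by the edgeR quasi-likelihood test) was below a fold of 3 with TMM and above it with library totals (2.25) and the offsets (2.95). *HOXB6*, the most abundant HOX gene of parental cells, had 114.5, 120.8 and 117.4 CPM in the parental and 63.3, 67.7 and 66.6 CPM in the p85βKR-AA libraries. Its log2 fold change was -0.84 with TMM, 0.091 with library totals and 0.66 with the offsets, so that its direction turned with the scaling while the gap to *HOXB3* did not.

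The posterior HOXB genes were lower in p85βKR-AA cells with TMM scaling, all without overlap and none by a fold of 3. *HOXB7* had 44.6, 52.9 and 52.7 CPM in the parental and 22.7, 20.8 and 24.1 CPM in the p85βKR-AA libraries. *HOXB8* had 24.0, 26.0 and 26.7 CPM against 11.5, 12.6 and 13.7 CPM, and *HOXB9* 70.7, 58.7 and 77.7 CPM against 51.2, 46.3 and 51.2 CPM. *HOXB13*, a gene of the prostate and distal colon that lies apart from the rest of the cluster, had 21.2, 18.0 and 19.7 CPM against 7.47, 7.35 and 9.07 CPM. Log2 fold changes were -1.15, -1.03, -0.48 and -1.303 in this order. Those of *HOXB7* and *HOXB13* stayed negative with library totals (-0.23 and -0.38) and with the offsets (-0.30 and -0.45), that of *HOXB8* was -0.10 and 0.62, and that of *HOXB9* was 0.44 and 0.35. *HOXB2* (0.797, 1.02 and 0.802 against 0.682, 0.905 and 0.474 CPM) overlapped between the conditions.

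**Figure D3:**
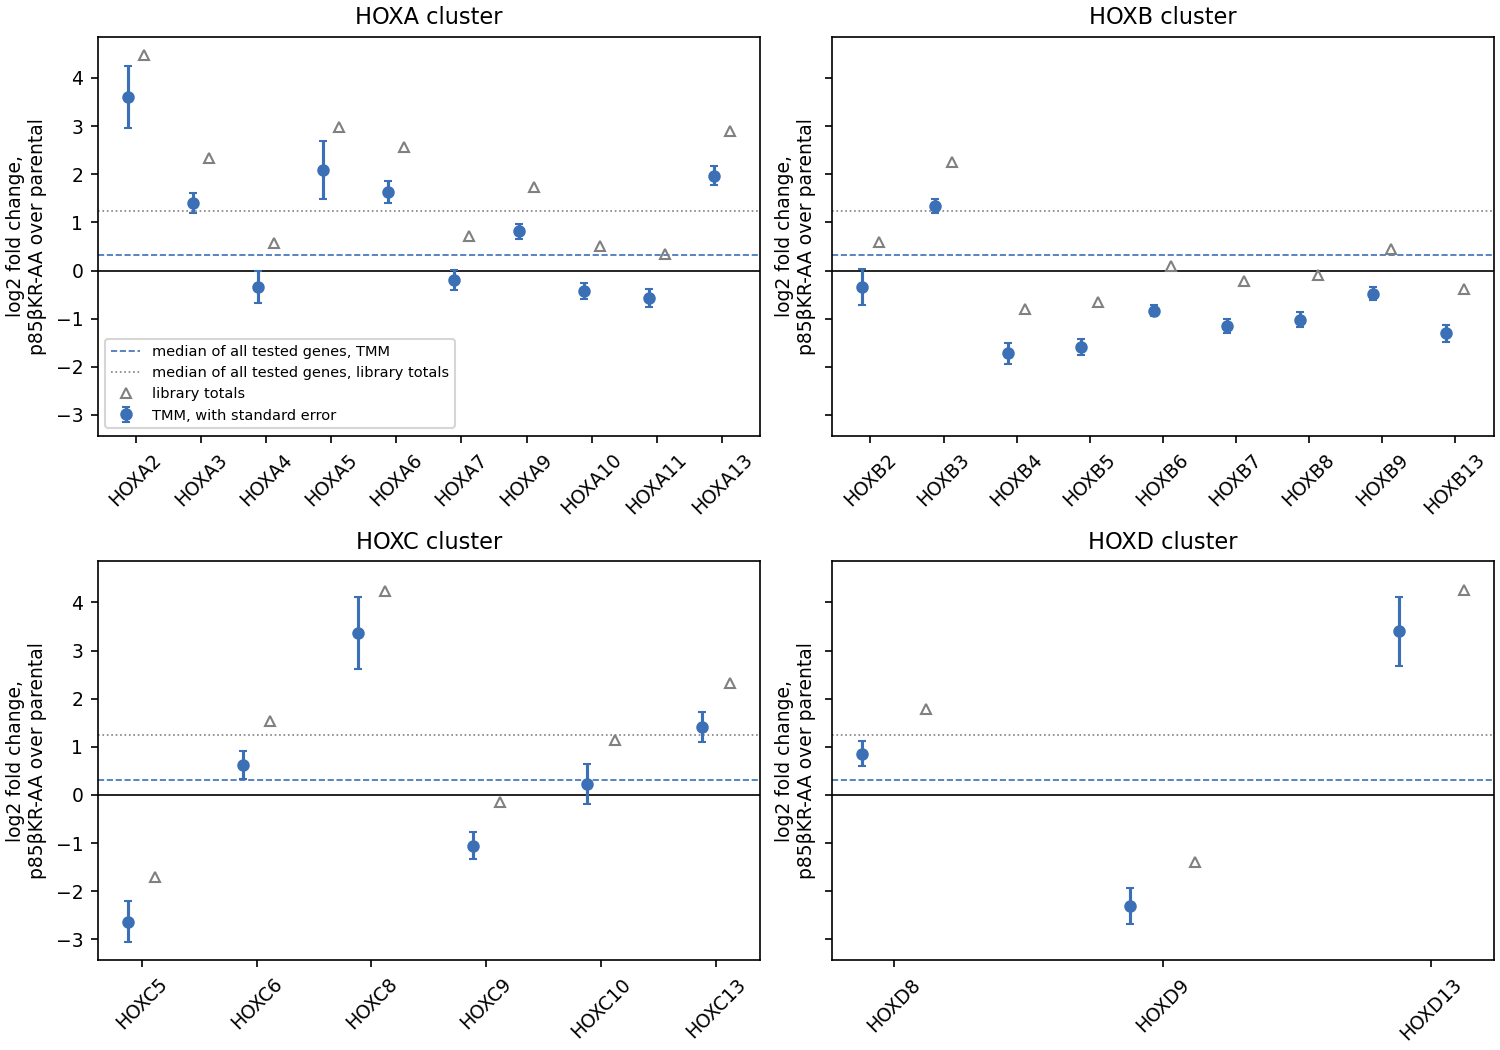
Log2 fold change (y axis, p85βKR-AA over parental, 3 libraries each) of the 28 tested HOX genes along each cluster. Filled circles with standard errors are the TMM fit and open triangles library totals, and the dashed and dotted lines are the medians of all tested genes in the same fits (0.32 and 1.24). In each of the fits, *HOXB3* is the only tested HOXB gene above the line of that same fit.

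The HOXC cluster (chr12:54332615-54449814, plus strand) had 1 up-regulated and 1 down-regulated gene among 6 tested (16.7% each, against 28.6% up and 17.6% down of all tested genes). *HOXC8*, a gene of the trunk, had 0, 0 and 0.185 CPM in the parental and 0.900, 0.627 and 0.656 CPM in the p85βKR-AA libraries. The parental counts, 3 in all, came from a single library, against 69 counts in the p85βKR-AA libraries. The ratio of scaled levels was 11.1 (exact 95% interval 3.66 to 55.4). The fitted log2 fold change was 3.36 (SE 0.74, adjusted p = 0.000999 by the edgeR quasi-likelihood test) and 7.16 without parental replicate 3, when no parental count is left and the value rests on the prior count. *HOXC5* had 1.33, 2.84 and 1.75 CPM in the parental and 0.346, 0.163 and 0.410 CPM in the p85βKR-AA libraries, all lower. Its log2 fold change was -2.63 (SE 0.43, adjusted p = 8.43e-05 by the edgeR quasi-likelihood test), -1.70 with library totals and -0.96 with the offsets.

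*HOXC9* had 3.45, 2.69 and 3.95 CPM in the parental and 2.002, 1.18 and 1.68 CPM in the p85βKR-AA libraries, lower without overlap (log2 fold change -1.05, adjusted p = 0.00398 by the edgeR quasi-likelihood test) but at 0.17 with the offsets. *HOXC13*, a regulator of hair and nail formation, had 1.20, 0.655 and 0.987 CPM against 2.73, 2.26 and 2.62 CPM, higher without overlap (1.41, adjusted p = 0.000857 by the same edgeR test). Both missed the fold of 3, that of *HOXC13* being reached without parental replicate 1 (1.60), with library totals (2.33) and with the offsets (2.64). *HOXC6* was higher without overlap at 1.93, 1.36 and 1.296 against 2.02, 2.22 and 2.84 CPM, and *HOXC10* overlapped at 0.531, 0.291 and 0.802 against 0.655, 0.557 and 0.729 CPM.

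The HOXD cluster (chr2:176957449-177055635, plus strand) was the least expressed, and 3 of its 9 genes were tested. *HOXD13*, a regulator of digit formation, had 0.0664, 0 and 0.0617 CPM in the parental and 0.436, 0.662 and 0.474 CPM in the p85βKR-AA libraries. The 3 parental libraries held 2 counts in all and the p85βKR-AA libraries 48. The ratio of scaled levels was 11.6 (exact 95% interval 3.05 to 98.8) and the fitted log2 fold change 3.40 (SE 0.72, adjusted p = 0.00075 by the edgeR quasi-likelihood test), with an adjusted p of 0.0111 in DESeq2. *HOXD9* had 3.92, 1.82 and 2.84 CPM in the parental and 0.709, 0.383 and 0.619 CPM in the p85βKR-AA libraries, a log2 fold change of -2.31 (SE 0.37, adjusted p = 7.62e-05 by the edgeR quasi-likelihood test), -1.40 with library totals and -0.35 with the offsets. Its neighbour *HOXD8* went the other way, at 1.48, 2.11 and 2.50 CPM in the parental and 3.65, 3.68 and 3.75 CPM in the p85βKR-AA libraries, without overlap and below a fold of 3 (0.86, adjusted p = 0.00800 by the edgeR quasi-likelihood test), and it was called up-regulated with library totals (1.78) but not with the offsets (0.50).

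The 10 genes that were not tested held at most 22.6 counts in any library. *HOXB1*, *HOXC12*, *HOXD1*, *HOXD4* and *HOXD12* had 0 to 2 counts in each of the 6 libraries. *HOXC4* had 0, 6.30 and 1 counts in the parental and 19, 18.7 and 9.15 in the p85βKR-AA libraries. In CPM the conditions overlapped for *HOXC4*, with 0.459 in parental replicate 2 and 0.333 in p85βKR-AA replicate 3. *HOXD10* had 0, 2 and 3.31 against 16.4, 11 and 6.22 counts, without overlap in CPM. For *HOXD10* the ratio of scaled levels was 3.20 (exact 95% interval 1.24 to 10.5). *HOXC11* (1, 8 and 7 against 6, 8 and 7 counts), *HOXD3* (1.53, 5.73 and 1.53 against 0.22, 4 and 0) and *HOXD11* (12, 7 and 5.69 against 22.6, 9 and 7.78) overlapped in counts. For these 3 no difference was detectable at this depth.

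Ratios of neighbouring genes within a library do not depend on library scaling, though length and GC content still enter them. The pairs were chosen after the values were seen and are given as a description. *HOXB3* had 0.308, 0.244 and 0.339 counts per count of *HOXB6* in the parental and 1.35, 1.32 and 1.35 in the p85βKR-AA libraries. *HOXB3* over *HOXB4* was 4.84, 3.48 and 4.98 against 30.5, 39.5 and 42.2. The order of *HOXB3* and *HOXB6* was thus reversed in each p85βKR-AA library. At the posterior end of HOXA, *HOXA13* over *HOXA11* was 0.559, 0.338 and 0.397 in the parental and 2.76, 2.53 and 2.23 in the p85βKR-AA libraries, and *HOXA9* over *HOXA10* 0.771, 0.703 and 0.819 against 1.86, 1.75 and 1.80. *HOXD8* over *HOXD9* was 0.377, 1.16 and 0.882 against 5.14, 9.60 and 6.06, and *HOXC13* over *HOXC9* 0.346, 0.243 and 0.250 against 1.36, 1.91 and 1.57. The gap between *HOXA13* and *HOXA11* was absent with the offsets, at log2 fold changes of 0.12 and 0.26. That between *HOXD8* and *HOXD9* was smaller with the offsets, at 0.50 and -0.35, than with TMM, at 0.86 and -2.31. For each pair the ratios of the conditions did not overlap.

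With TMM scaling, paralogs of the same number often went in different directions. In paralog group 13, *HOXA13* (log2 fold change 1.97, but 0.12 with the offsets), *HOXC13* (1.41) and *HOXD13* (3.40) were higher and *HOXB13* (-1.303) lower. In group 9, only *HOXA9* (0.81) was higher, and *HOXB9* (-0.48), *HOXC9* (-1.05) and *HOXD9* (-2.31) were lower with TMM scaling, *HOXB9* and *HOXC9* with the other sign under the offsets. The spread between the lowest and the highest member was 4.70 on the log2 scale in group 13 and 4.72 in group 5, from *HOXC5* (-2.63) over *HOXB5* (-1.59) to *HOXA5* (2.09). It was 4.39 in group 8, with *HOXC8* (3.36), *HOXD8* (0.86) and *HOXB8* (-1.03). In group 6 it was 2.48, with *HOXA6* (1.64), *HOXC6* (0.62) and *HOXB6* (-0.84). Groups 8 and 6 did not keep opposite directions under every scaling. With the offsets, all tested members of both were positive, *HOXB8* at 0.62 and *HOXB6* at 0.66. Group 6 was all positive with library totals as well, *HOXB6* at 0.091, while *HOXB8* of group 8 stayed negative there at -0.10. The closest was group 3, with *HOXA3* at 1.41 and *HOXB3* at 1.34.

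**Figure D4:**
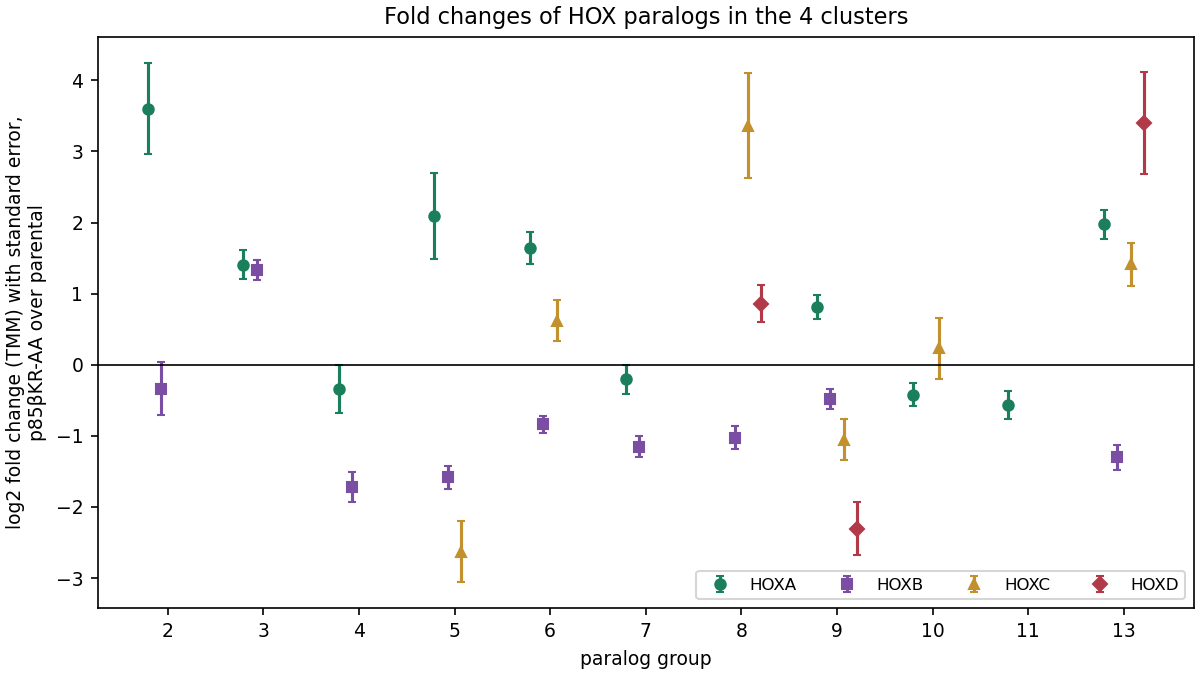
Log2 fold change with TMM scaling and its standard error (y axis, p85βKR-AA over parental, 3 libraries each) of the 28 tested HOX genes by paralog group (x axis), with a symbol per cluster. Members of group 5 range from -2.63 to 2.09 and those of group 3 differ by 0.07.

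Many HOX genes share bases with other genes, and the library kit does not mark strand, so that reads from a gene and from an overlapping gene cannot always be told apart. In the annotation, 32 of the 38 genes were overlapped by another gene, 23 on the same strand and 24 on the opposite strand. An unnamed gene (ENSG00000273433) runs over *HOXA3* to *HOXA6* on their strand, with a mean of 119.8 counts in parental and 421.3 in p85βKR-AA libraries. When the counts of these 5 genes were summed into 1 unit, an alternative chosen after the data were seen, the log2 fold change was 1.14 (SE 0.16, adjusted p = 1.98e-05 by the edgeR quasi-likelihood test), below a fold of 3. The unit of *HOXC4* to *HOXC6* with the genes over them had -0.24 (SE 0.23, adjusted p = 0.353 by the same edgeR test), where *HOXC5* alone was down-regulated. The division of reads within these units thus bears on the calls of *HOXA5*, *HOXA6* and *HOXC5*. Other called members share this limit, as *HOXB4* and *HOXB5* lie within *HOXB3*, *HOXC8* within *HOXC6* and *HOXD9* opposite *HOXD-AS2*. So do the ratios of *HOXB3* to *HOXB4* and *HOXB6*. Of the tested members, 22 were overlapped by a gene with a mean of 10 counts or more in a condition. For these other genes, the part of shared reads in the changes was not tested.

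Of 20 long noncoding RNAs of the clusters, 12 were tested, and 2 were up-regulated and 3 down-regulated (against 28.6% up and 17.6% down of all tested genes), 4 and 1 with library totals and 3 and 1 with the offsets. *HOXD-AS2*, which runs against *HOXD8* and *HOXD9*, had 2.47, 6.14 and 2.03 CPM in the parental and 0.0630, 0.188 and 0.0364 CPM in the p85βKR-AA libraries (log2 fold change -5.26). *HOXA11-AS*, which shares 726 bases with *HOXA11*, was down-regulated as well (32.9, 35.2 and 29.0 against 8.89, 9.60 and 9.51 CPM, log2 fold change -1.79), as was *PRAC2*, near *HOXB13* (-2.16). The offset fit gave 0.0091 for *HOXA11-AS* and -0.041 for *PRAC2*. *HOXB-AS2*, within *HOXB3*, rose (0.0664, 0.0728 and 0.617 against 1.91, 1.57 and 1.35 CPM, 2.59), and so did *HAGLR*, opposite *HOXD1* and *HOXD3* (1.75). *HOTTIP*, which shares 1517 bases with *HOXA13* and is known to act on the posterior HOXA genes, had 7.90, 7.06 and 11.1 CPM in the parental and 24.0, 24.3 and 24.0 CPM in the p85βKR-AA libraries, higher in each but with a log2 fold change of 1.47. Its counts per count of *HOXA11-AS* were 0.241, 0.201 and 0.381 against 2.70, 2.53 and 2.53. Not called were *HOXA-AS2* (0.29), *HOXA-AS3* (0.70), *HOXA10-AS* (-1.45) and *HOXB-AS3* (-1.16), which overlap members of their clusters, and the last 2 had positive values with the offsets (0.42 and 0.77).

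HOX proteins bind DNA with PBX and MEIS partners. Of 9 such cofactors 8 were tested, with 4 up-regulated and 1 down-regulated (against 28.6% up and 17.6% down of all tested genes), 5 and 0 with library totals and 3 and 0 with the offsets by edgeR. *PBX3* had 0.797, 0.510 and 0.432 CPM in the parental and 4.61, 5.36 and 3.97 CPM in the p85βKR-AA libraries, a log2 fold change of 2.99 (2.26 with the offsets). *MEIS1* had 0 counts in each parental library and 21, 11 and 16 counts in the p85βKR-AA libraries, at least 2.35-fold higher against a floor of 3 counts per library. *MEIS3* fell (-1.59), with 0.38 in the offset fit.

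Another list held 12 genes that act for or against the induction of HOX genes (caudal factors, retinoic acid receptors and the enzymes that break down retinoic acid). Of these, 8 were tested, with 1 up-regulated and 2 down-regulated (against 28.6% up and 17.6% down of all tested genes). With library totals and with the offsets, edgeR called 1 up and 0 down. *CDX2*, the caudal factor of the intestine, had 365, 322 and 353 CPM in the parental and 85.5, 84.5 and 93.9 CPM in the p85βKR-AA libraries, a log2 fold change of -1.98 (adjusted p = 1.96e-08 by the edgeR quasi-likelihood test), -1.06 with library totals and -1.09 with the offsets. *CDX1* had 3, 0 and 2 counts in the parental and the same 3 values in the p85βKR-AA libraries. *RARB*, a retinoic acid receptor, had 0 counts in each parental library and 138, 73 and 77 counts in the p85βKR-AA libraries, at least 13.9-fold higher against the same floor. *RXRB*, a partner of these receptors, fell (-1.94).

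All 30 chromatin regulators of HOX genes were tested, with 9 up-regulated and 4 down-regulated (against 28.6% up and 17.6% down of all tested genes). The largest increases were in *KMT2A*, a methyltransferase that keeps HOX genes active (3.85), *KDM6A*, an H3K27 demethylase (3.28), and *EZH1*, a methyltransferase of the repressive complex PRC2 (2.65). The largest decreases were in the Polycomb genes *RING1* (-2.75), *PHC2* (-1.87) and *CBX8* (-1.75). With library totals 12 of the 30 were up-regulated (43.9% of all genes) and 1 was down-regulated (6.06%). With the offsets 1 of the 30 was up-regulated (17.8% of all genes) and 0 were down-regulated (6.26%) by edgeR, with *KMT2A*, which has 16628 bases in the table, at 1.39 and *RING1* at -0.88. Of 14 genes that flank the clusters 11 were tested, with 4 up-regulated (28.6% of all tested genes were), led by *LNPK* (3.35) beside HOXD and *SKAP2* (3.34) beside HOXA, and 2 down-regulated, *SKAP1* (-1.72) beside HOXB and *SMUG1* (-1.61) beside HOXC. *CBX5* rose as well (2.49). With library totals edgeR called 5 of the 11 up and 0 down, and with the offsets 2 up and 1 down, where *LNPK* (0.93) and *SMUG1* (-0.25) lost their calls.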

How the data were processed

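RNA-seq of DLD1 parental and p85βKR-AA cells, 3 libraries each, was analysed. Total RNA was isolated with TRIzol, per the labels libraries were made with the Illumina TruSeq RNA Sample Prep Kit, and according to the study's methods SeqPrep and Sickle served to trim the paired-end reads. The submitters' processing notes name HISAT2 2.1.0, RSEM 1.3.1, DESeq2 1.24.0 and the build hg18, with no role or order, and the annotation is not given in the sources used here. Per Ensembl gene, the authors deposited estimated counts without normalization, and a gene length, whose derivation is not given, stands in another column.

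Libraries were grouped by the genotype in the labels. The source name of p85βKR-AA replicates 2 and 3 reads R479A and R480A in place of R478A, while title and genotype read R478A for all 3. Counts were rounded to whole numbers, since the design had assumed whole counts, and tested with edgeR 4.0.16 in R 4.3.3 (filterByExpr at its count limits of 10 and, in total, 15, TMM, quasi-likelihood F test, Benjamini-Hochberg adjustment over all 16059 genes, no covariate). Totals were 20301396 to 26712816 counts, so that 3 counts, the floor used, were worth at most 0.218 CPM. Intervals and floors cover counting error only. An exact permutation test of 3 against 3 libraries cannot go below 0.1, so none is given.

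All tested members were named, and of the other lists those called with the largest fold changes (up to 3 in each direction), *CDX1*, *CDX2* and genes that overlap a member. Not every gene that this rule would name is reported here. The members and lists were chosen with earlier results of these data known. Positions, symbols and GC content came from GENCODE release 44 lifted to GRCh37 and are those of the annotation, and promoter sequences from RefSeq. Of the 38 lengths, 27 equal an annotated transcript length.

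Alternatives were DESeq2 1.42.0, library totals, no filter, a limit of 10 counts in each library, a block for the replicate number, fits without each library in turn, a fold of 2 with an adjusted p under 0.05, and offsets for length and GC content per library (splines with 5 degrees of freedom). Summed transcription units and values relative to the all-gene median were added after the data were seen. On counts simulated from the pooled mean of all libraries (15840 genes, 189 changed by a fold of 6), edgeR recovered 188 and DESeq2 187, with 0 false calls. The simulation drew raised and lowered genes in equal number and held no trend with length or GC content. It therefore checks that the fits run as intended, and does not measure the accuracy of calls under the shifts seen here. Protein sequences and ChIP-seq were not used here.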

Additional observations from a re-analysis of the deposited data

How the results depend on the processing

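Of the members called with TMM, the count of up-regulated genes (6) was 11 with library totals, 3 with at least 10 counts in every library and 10 with length and GC offsets, and that of down-regulated genes (4) was 1, 1 and 0 in the same order and 8 at a fold of 2 with an adjusted p under 0.05. By cluster, the up-regulated genes with library totals were 1 in HOXB, 2 in HOXC and 2 in HOXD, with the offsets 1 in HOXB and 3 in HOXC, at a fold of 2 they were 1 in HOXB and 2 in HOXC, with at least 10 counts in every library 0 in HOXC and 0 in HOXD, and with DESeq2 0 in HOXD (2 at an unadjusted p under 0.05). Down-regulated HOXB genes numbered 0 with library totals, with the offsets and with at least 10 counts in every library, 1 without the filter and 5 at a fold of 2. Down-regulated HOXC genes numbered 0 with at least 10 counts and with the offsets and 2 at a fold of 2, and HOXD genes 0 with library totals and with the offsets. Fewer members were tested with at least 10 counts in every library. The cause of the other shifts was not tested. Of all genes, 7052 were up-regulated with library totals, 2898 with at least 10 counts and 2856 with the offsets, and 973 were down-regulated with library totals, 1005 with the offsets and 4289 at a fold of 2. Calls were up in 61.9% with TMM, 87.9% with library totals and 74.0% with the offsets.

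The median log2 fold change of the members was 0.65 with library totals and 0.79 with the offsets. That of all genes was 0.21 with DESeq2, 1.24 with library totals, 0.81 without the filter, 0.10 with at least 10 counts and 0.25 with the offsets. The log2 ratio of the summed level was 0.47 in HOXA (1.39 with library totals), -0.36 in HOXB (0.56 with library totals and -0.45 without the length), -0.13 in HOXC (0.79 and -0.0013) and -0.28 in HOXD (0.64 with library totals). With library totals the sign turned for *HOXA4* (0.57), *HOXA7* (0.71), *HOXA10* (0.50), *HOXA11* (0.35), *HOXB2* (0.59), *HOXB6* (0.091) and *HOXB9* (0.44). With the offsets it turned for *HOXA4* (0.92), *HOXA7* (0.93), *HOXA10* (0.22), *HOXA11* (0.26), *HOXB2* (1.38), *HOXB6* (0.66), *HOXB8* (0.62), *HOXB9* (0.35) and *HOXC9* (0.17). *HOXC10* stood at -0.076 without parental replicate 2. The cause of these turns was not tested.

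With 1 library left out, 4 to 6 members were up-regulated and 3 to 4 down-regulated, 2 to 4 and 0 in HOXA, 0 and 1 to 2 in HOXB, 1 to 2 and 1 in HOXC, and 1 and 1 in HOXD. The median of the members ranged from -0.24 to -0.0065 and that of all genes from 0.31 to 0.36, with 4404 to 4783 genes up-regulated and 2774 to 2992 down-regulated. The replicate numbers did not pair the samples (correlation of deviations -0.136, 0.119 and -0.0447 for replicates 1, 2 and 3), and with the replicate block 6 members were up-regulated and 3 down-regulated, 1 of the latter in HOXB, and no other call changed. Over all members and alternatives, 299 values kept their direction and side of the threshold, 23 lost the call, 12 gained it and 17 changed sign. Depth limits the 10 members that were not tested and the parental levels of *HOXA2*, *HOXC8* and *HOXD13*.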
